A study of Mus musculus with 12 samples.

Results

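The genotype by valproic acid interaction asks whether exposure to valproic acid moved a gene by a different amount in knockout than in wildtype forebrain. It was computed for each gene as the exposed minus unexposed log2 difference in knockout, minus the same difference in wildtype, over all 12 libraries of the series and 17995 genes with enough counts. A positive value means that the exposed knockout stands higher, relative to the unexposed knockout, than the exposed wildtype does relative to the unexposed wildtype. All 12 of 12 libraries entered, 3 in each of 4 groups: wildtype (WT), knockout (labelled htr3a Notch KO), wildtype with valproic acid, and knockout with valproic acid. The series describes the tissue as adult forebrain, the deletion of Notch as conditional and the exposure as prenatal. The sources used here do not give the Notch gene deleted, what drove its deletion, how much drug was given and when, the sex and exact age of the mice, or whether tissue was pooled. The labels do not say that the libraries come from separate animals, so p-values measure the spread between these libraries, which may in part be technical.

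Notch receptors are cut after binding a ligand on a neighbouring cell, and the freed domain joins the DNA-binding protein Rbpj to switch on Hes and Hey genes, which hold back neuronal differentiation. Valproic acid is an antiepileptic drug that inhibits histone deacetylases, and its use in pregnancy is a rodent model of autism. An interaction is the quantity that bears on whether loss of Notch modifies the response to the drug, the question raised by the title of the series.

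Libraries held 16887885 to 24944681 counts, and genes of the mitochondrial genome took 12.2% to 18.6% of them. The highest mitochondrial shares, 18.6% in knockout with valproic acid replicate 1 and 16.4% in wildtype with valproic acid replicate 3, came with the lowest levels of the neuronal gene Snap25, 1195 and 1334 CPM (counts per 1000000 of the library, TMM-scaled) against 1430 to 1735 in the other 10. Xist, the RNA of the inactive X chromosome, had 12 and 6 counts in the third replicate of wildtype and of knockout with valproic acid, against 5919 to 10767 elsewhere. The same 2 libraries held 829 and 925 counts of Ddx3y, a gene of the Y chromosome, against 0 to 2 in the other 10. Both are exposed libraries, 1 in each genotype, so sex-linked expression differs between the exposed and the unexposed groups. Values without each of these pairs are given below where they bear on a result. Genes of striatal projection neurons, a forebrain cell type, were present in every library, at a mean of 6.48 to 7.07 log2 CPM over 20 genes. No label names the deleted Notch gene, so no gene could serve as a check of the deletion, and the 4 Notch receptor genes are described further on. Htr3b, a serotonin receptor subunit gene, did follow the genotype labels: it had 0 to 1 counts in each of the 6 wildtype libraries and 60 to 112 in each of the 6 knockout libraries.

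Across the transcriptome 0 of 17995 genes passed the interaction test at an adjusted p of 0.05 (0% called), and the smallest adjusted p was 0.833. Unadjusted p-values under 0.05 were found for 1075 genes, 5.97% of those tested. Of these, 566 were positive (3.15%) and 509 negative (2.83%). DESeq2 and limma-voom also called 0 genes, with 908 and 1092 at an unadjusted p under 0.05, and limma-voom with library weights called 0 with 2067. The interaction had a median standard error of 0.17 on the log2 scale, and for 13357 genes (74.2%) its 95% interval lay inside a 2-fold difference in either direction. Smaller differences were not resolved at this depth and number of libraries.

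Each genotype alone did respond. In wildtype 161 genes passed the test for valproic acid (0.895% of those tested), of which 37 rose and 124 fell. In knockout 10 genes passed (0.0556%), of which 3 rose and 7 fell. With a term for the 2 libraries that lack Xist and express Ddx3y the calls were 69 and 2, and without those libraries 40 and 14. Unadjusted p-values under 0.05 were about as frequent in both genotypes, with 2548 genes in wildtype (14.2%) and 2689 in knockout (14.9%), so the unequal counts of calls are not by themselves a difference between the genotypes. Read the other way, knockout differed from wildtype at 7 genes without valproic acid (0.0389%) and at 9 genes with it (0.05%).

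The valproic acid effects of wildtype and knockout come from separate libraries and can be set side by side. In both, the exposed group holds a library that lacks Xist and the unexposed group does not. The part of this shared imbalance in effects of the same sign was not tested. Of the 161 genes called in wildtype, 154 (95.7%) had the same sign in knockout, against 62.7% of all tested genes, and 93 of them also had an unadjusted p under 0.05 there. The 124 that fell had a median log2 change of -0.39 in wildtype and -0.21 in knockout, and the 37 that rose had 0.36 and 0.16. The wildtype values chose these genes, so a smaller median in the other genotype carries no weight as a difference, and the reverse choice also gave smaller medians in the genotype that did not choose. Among the 161 genes with the smallest p in knockout, 150 (93.2%) had the same sign in wildtype, and the 97 lower ones had medians of -0.34 in knockout and -0.21 in wildtype. The 64 higher ones had medians of 0.52 in knockout and 0.16 in wildtype.

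The 10 genes that passed in knockout all had the same sign in wildtype. For Rbp3 that sign rests on 0 to 0.204 CPM in the wildtype libraries and carries no weight. Of the 10 genes, 4 passed in both genotypes. Spock3, an extracellular matrix proteoglycan gene, fell by 0.60 in wildtype and by 0.44 in knockout on the log2 scale. Pde7b, a cyclic AMP phosphodiesterase of striatal neurons, fell by 0.54 and 0.48. Trim23, a ubiquitin ligase gene, and Osbpl8, which encodes an oxysterol-binding lipid transfer protein, were the other two, with interactions of -0.06 and -0.04. For Spock3 and Pde7b the exposed libraries did not overlap the unexposed ones in either genotype. Pde7b stood at 44.9, 44.3 and 46.3 CPM in wildtype, 31.4, 31.8 and 30.2 in exposed wildtype, 46.0, 41.2 and 38.1 in knockout, and 27.1, 31.2 and 31.5 in exposed knockout. The remaining 6 were called in knockout only, with interactions of 0.44 for Igfbp2, 0.48 for Slc29a4, -0.28 for Plppr5, -0.49 for Arl15 and -0.16 for Serpini1, and Rbp3, whose few counts are given below. For these 6 no interaction passed the test either.

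Genes with the smallest interaction p-values mostly had valproic acid effects of opposite sign in the genotypes. Of the 566 positive genes with an unadjusted p under 0.05, 455 were lower after exposure in wildtype and higher after exposure in knockout, 65 were lower in both and 46 higher in both. Of the 509 negative genes, 435 were higher in wildtype and lower in knockout, 45 lower in both and 29 higher in both. Opposite signs were found for 37.3% of all tested genes. Selection on the interaction itself favours opposite signs, so these counts describe the genes and test nothing.

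The 12 positive genes of smallest p and a mean of at least 1 CPM were Cldn2, Rxrg, Slc22a2, Stpg1, Igfbp2, Scara5, Coq2, Rps12-ps3, Cd9, Ftl1, Prima1 and Lyz2, and each had an adjusted p of 0.833. Cldn2, a tight-junction claudin of the choroid plexus, stood at 6.28, 9.16 and 8.78 CPM in wildtype, 6.97, 4.46 and 8.36 in exposed wildtype, 7.30, 6.40 and 7.59 in knockout, and 11.8, 12.9 and 12.8 in exposed knockout. The 3 exposed knockout libraries were the highest of all 12 and the other 3 groups overlapped. Its interaction was 1.12 ± 0.25 (log2 ± SE, unadjusted p = 0.000191), from -0.29 in wildtype and 0.83 in knockout. Igfbp2, which encodes an insulin-like growth factor binding protein, had the same shape at a higher level: 67.2, 71.6 and 65.6 CPM in wildtype, 77.6, 62.0 and 77.4 in exposed wildtype, 68.4, 61.7 and 64.6 in knockout, and 95.4, 91.7 and 94.1 in exposed knockout. It rose 1.44-fold in knockout (edgeR adjusted p = 0.00385) and had a ratio of 1.06 in wildtype (adjusted p = 0.668), with an interaction of 0.44 ± 0.11. Scara5, a scavenger receptor that takes up ferritin, was also highest in the exposed knockout libraries, at 1.70, 2.25 and 2.07 CPM against 0.598 to 1.60 in the other 9.

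A second shape among the positive genes was a lower level in exposed wildtype with no matching difference in knockout. Rxrg, the retinoid X receptor gamma gene of striatal neurons, stood at 42.4, 42.9 and 39.2 CPM in wildtype and 26.3, 26.4 and 27.8 in exposed wildtype. In knockout it stood at 37.9, 28.5 and 32.5 CPM, and in exposed knockout at 29.5, 29.9 and 34.0. The wildtype groups were apart and the knockout groups overlapped, with the unexposed knockout already low in 2 of 3 libraries. Rxrg fell by 0.63 in wildtype (adjusted p = 0.00139), its difference in knockout was -0.08, and its interaction was 0.55 ± 0.13. Cd9, a tetraspanin membrane protein gene, fell by 0.31 in wildtype (adjusted p = 0.0412) with 0.08 in knockout. This shape was also seen in genes that did not pass in wildtype. Coq2, of ubiquinone synthesis, had -0.25 in wildtype and 0.10 in knockout, and Ftl1, the ferritin light chain gene, had -0.26 and 0.12. Prima1, which anchors acetylcholinesterase in the membrane, had -0.69 and 0.42.

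Slc22a2, an organic cation transporter gene, had groups apart in both genotypes and in opposite directions. It stood at 1.57, 1.88 and 1.39 CPM in wildtype, 0.811, 0.818 and 1.07 in exposed wildtype, 0.660, 0.586 and 0.837 in knockout, and 1.48, 1.15 and 1.5 in exposed knockout. The unexposed knockout and the exposed wildtype were thus both low, and the interaction was 1.83 ± 0.44, on counts that are small. Lyz2, the lysozyme gene of macrophages and microglia, had 0.58 ± 0.16, and its exposed knockout libraries (18.1, 16.3 and 18.5 CPM) were all above the other 9 (11.6 to 15.3).

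The 12 negative genes of smallest p were Nucks1, Kcnh7, Opcml, Grin2b, Unc5d, Fam19a1, Slc24a2, Lnpep, Cd47, Scn2a, Grin2a and Hspa12a, again each with an adjusted p of 0.833. Nucks1, a nuclear DNA-binding protein gene, had the smallest p of all named genes (0.00014) and an interaction of -0.41 ± 0.09. It stood at 88.8, 88.3 and 93.7 CPM in wildtype, 107, 102 and 97.7 in exposed wildtype, 102, 101 and 105 in knockout, and 88.2, 91.5 and 83.7 in exposed knockout. Groups were apart in both genotypes, above the unexposed libraries in wildtype and below them in knockout. Among the 12 negative genes, 5 were apart in both genotypes, as were 2 of the 12 positive genes. The choice by interaction p favours groups that lie apart, and the share over all tested genes was not computed. These counts therefore describe the chosen genes only.

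Grin2b and Grin2a encode subunits of the NMDA-type glutamate receptor. Grin2b stood at 126, 115 and 132 CPM in wildtype, 157, 169 and 129 in exposed wildtype, 138, 139 and 134 in knockout, and 113, 125 and 130 in exposed knockout. The wildtype groups overlapped through the third exposed library, and the exposed knockout libraries were all below the unexposed ones. Its interaction was -0.45 ± 0.12, and without both libraries that lack Xist it was -0.61 and passed the test (adjusted p = 0.0491). Over the 24 other settings its adjusted p was under 0.05 in that 1 only. Grin2a had -0.45 ± 0.13 with overlap in both genotypes, and Scn2a, a voltage-gated sodium channel gene linked to autism, had -0.36 ± 0.10 with overlap in knockout.

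The 2 negative genes Kcnh7 and Unc5d passed in wildtype alone. Kcnh7, a potassium channel gene of the Erg family, rose from 34.6, 35.6 and 32.8 CPM to 46.1, 42.4 and 43.4 in wildtype (adjusted p = 0.0192). It stood at 37.7, 38.1 and 37.5 in knockout and 38.6, 35.0 and 34.0 in exposed knockout, which overlap. Unc5d, a netrin receptor family gene, rose by 0.47 in wildtype (adjusted p = 0.0214) and had -0.07 in knockout. Opcml, an adhesion molecule of the IgLON family, had 0.18 in wildtype and -0.18 in knockout with both pairs apart. Cd47, the cell surface signal that restrains phagocytes, had 0.07 and -0.29.

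**Figure D1:**
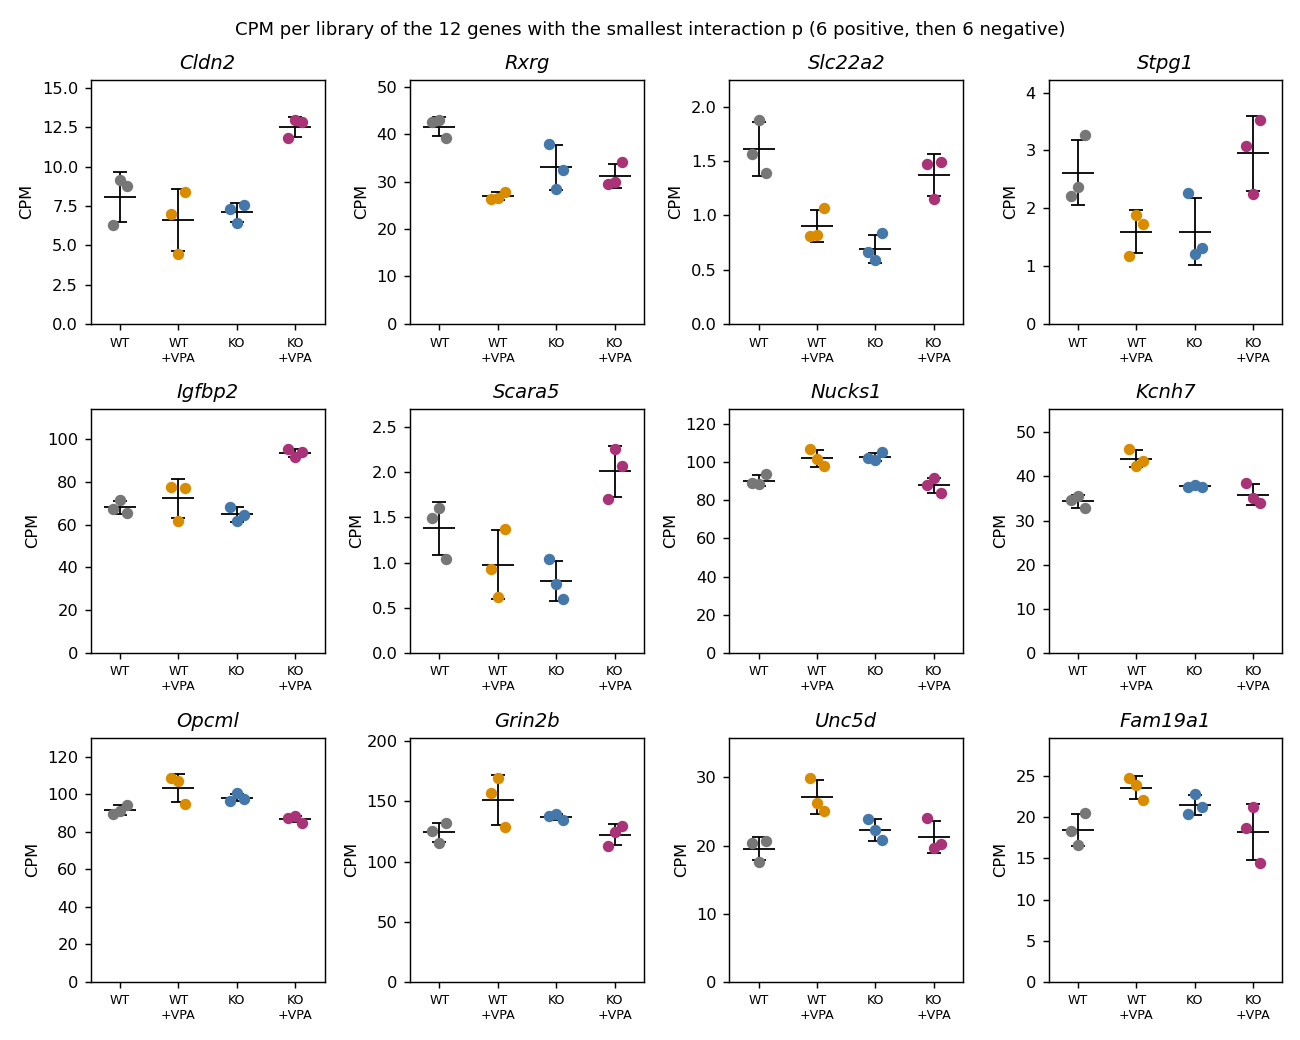
Level of 12 genes in each library, in CPM (vertical axes start at 0), for wildtype (WT) and knockout (KO) with and without valproic acid (VPA). Points are libraries, and bars are the mean ± SD of 3. The first 6 genes, Cldn2 to Scara5, have positive interactions and the last 6, Nucks1 to Fam19a1, negative ones, and Cldn2 and Igfbp2 are highest in all 3 exposed knockout libraries.

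**Figure D2:**
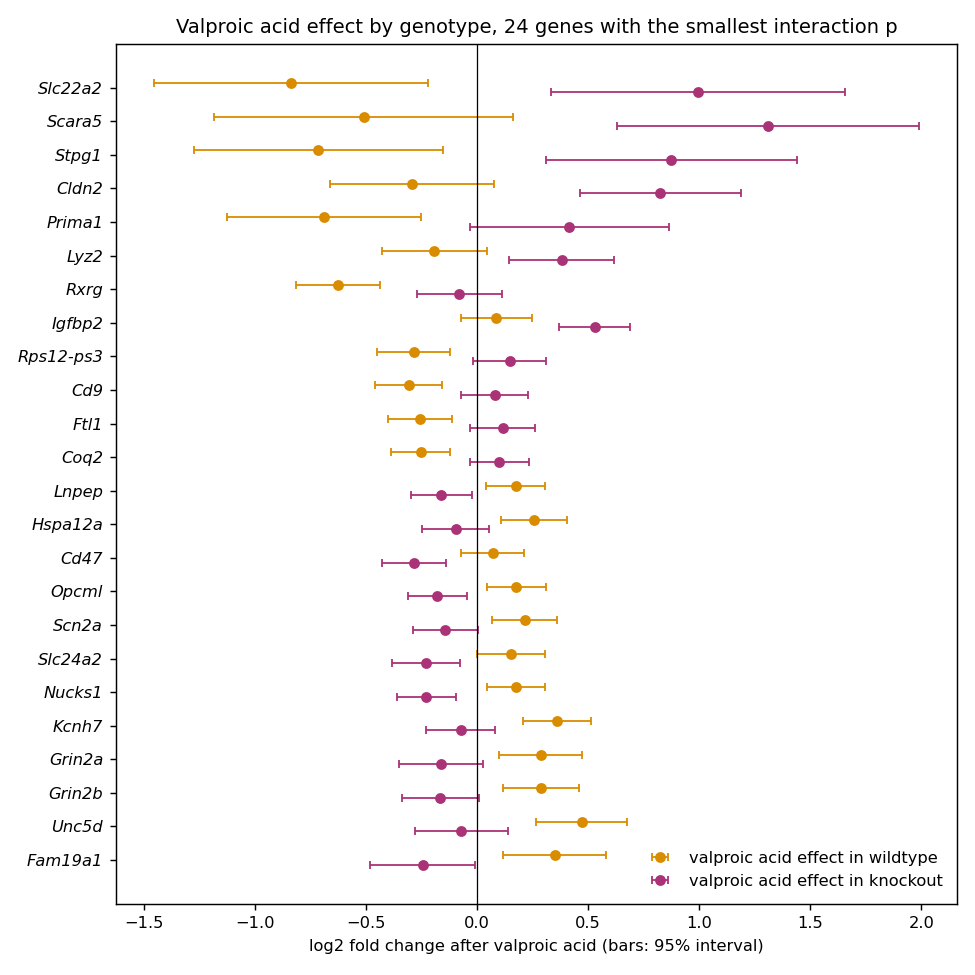
Log2 fold change after valproic acid in wildtype and in knockout, with 95% intervals, for the 24 genes with the smallest interaction p-values in either direction. In 22 of 24 genes the estimates lie on opposite sides of 0, a pattern that the choice of genes favours.

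Gene lists were described by counts and medians, beside all tested genes, of which 50.5% were positive with a median of 0.00 and a 10th to 90th percentile of -0.30 to 0.35. Of 56 lists, 53 had 8 or more tested members, and 0 members passed the interaction test in any of them. The 14 lists chosen by rule are described in full below, and the medians of the other 39 lay between -0.18 and 0.13. In bulk tissue fewer cells of a type and less RNA per cell cannot be told apart, which applies to each list of cell type markers.

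Choroid plexus epithelium, the tissue in the ventricles that makes cerebrospinal fluid, had the largest median of the 53 lists. All 22 tested members were positive and 8 had an unadjusted p under 0.05, with a median of 0.63 and single values from 0.12 to 1.19. The median valproic acid difference was 0.01 in wildtype and 0.62 in knockout. The mean level of the list per library was 3.34, 3.78 and 3.54 log2 CPM in wildtype, 3.54, 3.16 and 3.94 in exposed wildtype, 3.57, 3.60 and 3.58 in knockout, and 4.17, 4.34 and 4.15 in exposed knockout. The exposed knockout libraries were above all others and the wildtype groups overlapped. Ttr, which encodes the thyroid hormone carrier transthyretin and is the most abundant transcript of this epithelium, stood at 1223, 1901 and 1586 CPM in wildtype, 1609, 1267 and 2500 in exposed wildtype, 1853, 1700 and 1820 in knockout, and 2776, 2929 and 2426 in exposed knockout. Ttr was thus at a high level in every library, and its single highest exposed wildtype library reached the exposed knockout range. The list median was 0.83 without both libraries that lack Xist and 0.84 without the 2 of highest mitochondrial share. In these settings 20 and 18 members had an unadjusted p under 0.05 and 0 passed the test. The share of all genes at that level was also higher there, 8.65% and 7.97%, against 5.97% with all 12 libraries. Both settings leave out wildtype with valproic acid replicate 3, the highest exposed wildtype library for this list. Without that library alone the list median was 0.79. It was 0.46 with 21 of 22 positive without wildtype with valproic acid replicate 2, and 0.48 without wildtype replicate 2.

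Other named members of the choroid plexus list also had positive interactions, and that of Ttr was 0.41 ± 0.34. Kcnj13, a potassium channel of this epithelium, had an interaction of 0.70 ± 0.25 and stood at 7.73, 6.38 and 6.38 CPM in exposed knockout against 3.42 to 5.19 in the other 9 libraries. Oca2, better known for its part in pigmentation, had 1.02 ± 0.37 at 0.942 to 2.35 CPM. Aqp1, the water channel, had 0.84, and Folr1, the folate receptor, had 0.80. Cldn2, given above, is itself a member. Igfbp2 and Scara5, which are not, were also highest in the 3 exposed knockout libraries, and the part of this epithelium in their values was not tested.

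Meningeal fibroblasts and ependymal cells, which cover the brain and line its ventricles, were also positive on balance. Of 22 meningeal genes 19 were positive with a median of 0.24, from 0.11 in wildtype and 0.27 in knockout. Mean list levels in knockout were 4.19, 4.10 and 4.36 log2 CPM without and 4.71, 4.40 and 4.45 with exposure, apart from each other, while the wildtype groups overlapped. The highest values, 4.71 in knockout with valproic acid replicate 1 and 4.70 in wildtype with valproic acid replicate 3, are those of the 2 libraries of highest mitochondrial share, and without them the median was 0.31. With 1 library left out it ran from 0.10 (15 of 22 positive, without wildtype with valproic acid replicate 2) to 0.39 (without wildtype with valproic acid replicate 3), and it was 0.13 without knockout with valproic acid replicate 1 and 0.14 without wildtype with valproic acid replicate 1. Igfbp2 is a member of this list and was its 1 member to pass the test for valproic acid in knockout, where 0.0556% of all genes passed. Whether or not they passed, 21 of 22 members were higher after exposure in knockout and 16 of 22 in wildtype. Col1a1, a collagen chain gene, had an interaction of 0.44 ± 0.24, and Ccn3, a matricellular protein gene, had -0.34 ± 0.19. Of 20 ependymal genes 17 were positive with a median of 0.34, but 0 had an unadjusted p under 0.05 in either direction. Wildtype replicate 3 was high for this list (2.27 log2 CPM against 1.71 and 1.68), and without it the median was 0.12. Ak7, Cfap126 and Tekt1, genes of motile cilia, had interactions of 0.60, 0.62 and 0.57 with standard errors of 0.31, 0.33 and 0.33.

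Striatal projection neurons are the principal cells of the striatum, the input station of the basal ganglia. In the pan-striatal list 8 of 20 members passed the test as lower in wildtype, where 0.895% of all genes were called in both directions. In knockout 0 passed, where 0.0556% of all genes were called, so 0 of 20 is near that share. Whether or not they passed, 20 of 20 members were lower after exposure in wildtype and 18 of 20 in knockout. The median valproic acid difference was -0.43 in wildtype and -0.19 in knockout, and the interaction was positive for 17 of 20 with a median of 0.28 and 6 at an unadjusted p under 0.05. Mean list levels were 6.99, 7.01 and 6.96 log2 CPM in wildtype, 6.48, 6.63 and 6.56 in exposed wildtype, 7.07, 6.76 and 6.71 in knockout, and 6.53, 6.66 and 6.75 in exposed knockout. The wildtype groups were apart and the knockout groups overlapped, with knockout replicate 1 at the wildtype level and the other two unexposed knockout libraries between the wildtype groups. Without both libraries that lack Xist 15 of 20 members were positive with a median of 0.23, and with 1 library left out the median ran from 0.18 (without knockout replicate 3) to 0.40 (without knockout replicate 1).

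Among pan-striatal members, Syndig1l fell from 88.5, 80.7 and 77.2 to 51.7, 58.3 and 55.3 CPM in wildtype (adjusted p = 0.00246). It stood at 84.2, 66.2 and 66.5 in knockout and 61.6, 63.4 and 71.2 in exposed knockout, with an interaction of 0.43 ± 0.12. Rasgrp2, an exchange factor for small GTPases, fell by 0.40 in wildtype and had -0.10 in knockout, with 0.30 ± 0.11. The list of the indirect pathway, marked by the dopamine receptor Drd2 and the adenosine receptor Adora2a, had 6 of 9 members positive and a median of 0.29, with 0 at an unadjusted p under 0.05, and a median of 0.098 without wildtype with valproic acid replicate 1. Drd2 stood at 38.5, 42.1 and 36.9 CPM in wildtype, 21.9, 25.6 and 25.4 in exposed wildtype, 43.7, 28.6 and 24.1 in knockout, and 24.2, 26.8 and 32.6 in exposed knockout. The spread of the unexposed knockout libraries covered both wildtype groups, and the Drd2 interaction was 0.48 ± 0.28. Adora2a and Gpr6, an orphan receptor of the same cells, had 0.38 ± 0.29 and 0.37 ± 0.29. Tac1, the substance P precursor gene, and Syt6, a synaptotagmin gene, were among the smallest p-values of the wildtype response, with falls of 0.89 and 0.86 and interactions of 0.39 ± 0.14 and 0.44 ± 0.15.

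Lists of 3 other brain regions had positive medians that turned on wildtype replicate 3. In the hypothalamic list all 9 tested members were positive with a median of 0.60, and mean levels were 1.57, 2.12 and 3.59 log2 CPM in wildtype. The third library was high, and without it the median was 0.01 with 5 of 9 positive, while without wildtype replicate 2 it was 0.99. Otp, a hypothalamic transcription factor gene, stood at 2.96 CPM in that library against 0.204 to 0.662 in the other 11, and Pomc, the precursor of melanocortins, at 7.61 against 2.05 to 3.59. The olfactory bulb list had 12 of 17 members positive and a median of 0.22, which was -0.33 with 3 of 17 positive without that library. Its members Meis2, a homeobox gene that the pan-striatal list also holds, and Synpr, which encodes the vesicle protein synaptoporin, fell in wildtype and had interactions of 0.22 ± 0.12 and 0.21 ± 0.12. Etv1, a transcription factor gene of the same list, had -0.28 ± 0.12. Cerebellar neuron genes had 8 of 12 positive and a median of 0.28, which was -0.09 without it. En2, Grm4 and Cbln3 had 1.63 ± 0.66, 0.29 ± 0.14 and -1.36 ± 0.78, and En2 and Cbln3 lay at 0.144 to 1.43 CPM in all libraries.

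**Figure D3:**
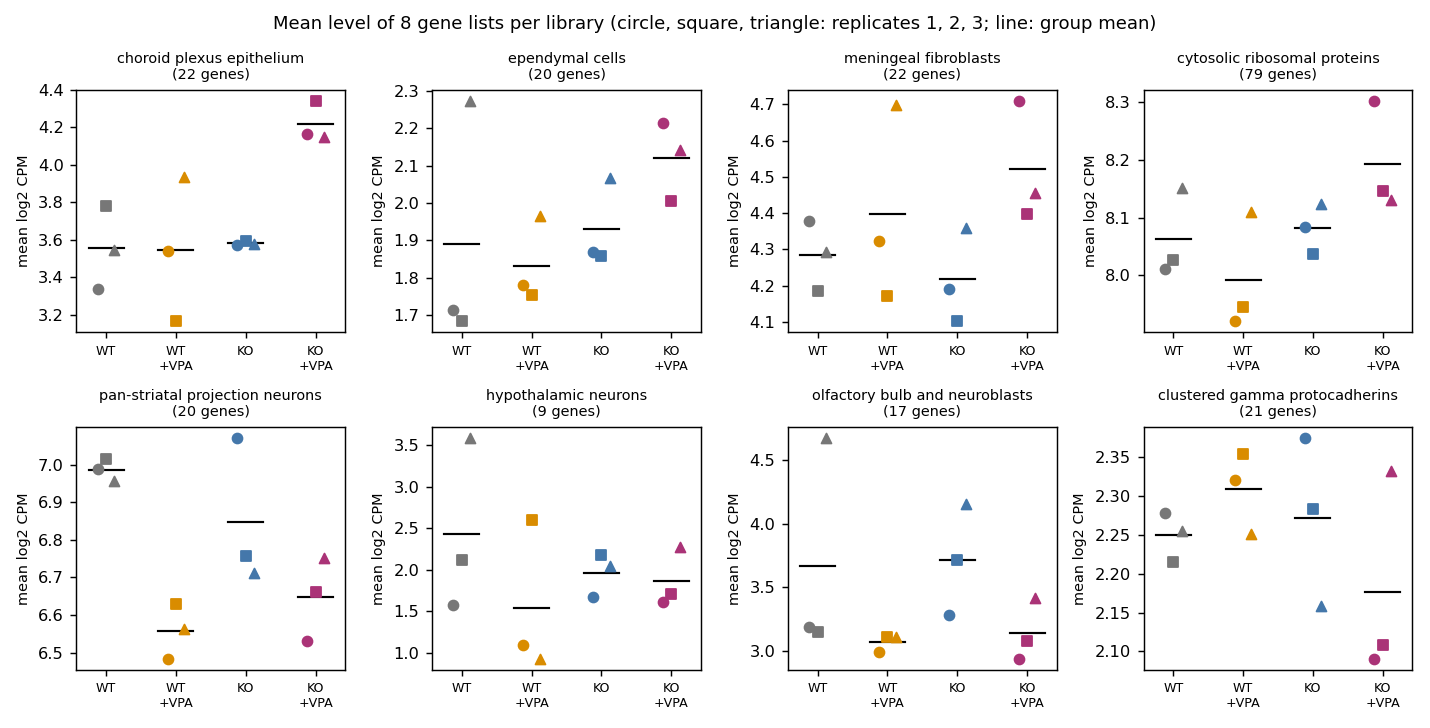
Mean level of 8 gene lists in each library, in log2 CPM (vertical axes do not start at 0), with the replicate number given by the symbol and group means by lines. Choroid plexus genes are highest in the 3 exposed knockout libraries, at 4.15 to 4.34, and wildtype replicate 3 stands high for the hypothalamic and olfactory bulb lists, at 3.59 and 4.67.

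Cytosolic ribosomal proteins formed the largest list with a displaced median. These proteins build the ribosome, and many of their mRNAs begin with a run of pyrimidines, the terminal oligopyrimidine tract, through which growth signals control their translation. Of 79 members 73 were positive (92.4%, against 50.5% of all genes), 26 had an unadjusted p under 0.05 and all 26 were positive, and the median was 0.18. The median valproic acid difference was -0.11 in wildtype and 0.10 in knockout, and 56 of 79 had opposite signs in the genotypes. All members were read in the same 12 libraries, and their number does not add to the number of libraries. Below, 4 members that carry the pyrimidine run are shown around their annotated start, on the strand of the gene, with the run in capitals; positions and sequences are from RefSeq GRCm38.p6.
Rpl13a, chr7:45128731-45128760, minus strand: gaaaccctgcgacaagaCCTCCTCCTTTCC
Rpl12, chr2:32961697-32961726, plus strand: ggcggagcaggatccgtCTTTTCggctttc
Rplp2, chr7:141447636-141447665, plus strand: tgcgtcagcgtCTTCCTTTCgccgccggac
Rps18, chr17:33955651-33955680, minus strand: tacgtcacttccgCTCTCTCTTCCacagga
A run was defined as a C within 5 bases of the annotated start followed by at least 4 pyrimidines (C or T) on the gene's strand. It was found at 27 of 58 ribosomal protein gene starts in the table (46.6%), at 18.5% of all 27025 starts and at 20.1% of the starts of tested genes. The 4 genes shown had interactions of 0.35, 0.27, 0.22 and 0.25, all above the list median. Their edgeR unadjusted p-values were 0.0088, 0.023, 0.030 and 0.031. They do not stand for the 27 genes with a run, and interactions of genes with and without a run were not compared. Of the 10 ribosomal genes with the smallest interaction p, 8 had a start in the table and 1, Rpl13a, had a run. No match says only that these letters are not at the annotated start in this table.

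The ribosomal list lay at 8.01, 8.03 and 8.15 log2 CPM in wildtype, 7.92, 7.94 and 8.11 in exposed wildtype, 8.08, 8.04 and 8.12 in knockout, and 8.30, 8.15 and 8.13 in exposed knockout. The exposed knockout libraries were above the unexposed ones, and the wildtype groups overlapped. Rpsa, the laminin receptor protein of the small subunit, stood at 728, 750 and 762 CPM in wildtype, 607, 623 and 731 in exposed wildtype, 706, 629 and 690 in knockout, and 837, 750 and 733 in exposed knockout. Its interaction was 0.39 ± 0.11 (unadjusted p = 0.00218). Rpl13 had 0.34 ± 0.10 with groups apart in both genotypes. Without both libraries that lack Xist the list had 76 of 79 positive, 47 at an unadjusted p under 0.05 and a median of 0.28. Without the 2 libraries of highest mitochondrial share the values were 72, 38 and 0.21, and without wildtype replicate 3 they were 69, 13 and 0.14. In these settings, in that order, 8.65%, 7.97% and 6.46% of all genes had an unadjusted p under 0.05, against 5.97% with all 12 libraries. Ribosomal protein genes have many processed pseudogenes, and how reads were shared between copies is not given, so single members are uncertain; Rps12-ps3, a pseudogene, had 0.43 ± 0.11 and its parent Rps12 had 0.36 ± 0.12.

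Clustered gamma protocadherins, adhesion proteins that give neurons a surface identity, had the lowest median of the 53 lists, -0.21, with 14 of 21 members negative; it was -0.10 without knockout replicate 1, -0.11 without wildtype replicate 2 and -0.13 without wildtype with valproic acid replicate 3. Of these 3 had an unadjusted p under 0.05, all negative: Pcdhgb5 with -0.77 ± 0.30, Pcdhga2 with -0.69 ± 0.29 and Pcdhga6 with -0.43 ± 0.20. Pcdhgb5 stood at 2.49, 1.77 and 2.43 CPM in wildtype, 2.72, 3.40 and 3.31 in exposed wildtype, 2.69, 2.84 and 2.81 in knockout, and 1.99, 2.40 and 2.37 in exposed knockout. Groups were apart in both genotypes, in opposite directions. The gamma genes share their last exons, so reads from those exons cannot be given to 1 member.

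Notch pathway components had no displaced median. Of 46 members 26 were positive with a median of 0.01, and 2 positive and 1 negative had an unadjusted p under 0.05. In either genotype's response to valproic acid 0 were called, which is near the shares over all genes, 0.895% in wildtype and 0.0556% in knockout. Among the receptors, Notch1 stood at 20.0, 16.9 and 16.6 CPM in wildtype, 17.2, 15.2 and 18.3 in exposed wildtype, 17.5, 17.6 and 16.4 in knockout, and 17.6, 17.9 and 21.7 in exposed knockout, and all 4 groups overlapped. The interactions were 0.24 ± 0.15 for Notch1, 0.11 ± 0.17 for Notch2, -0.22 ± 0.25 for Notch3 and 0.30 ± 0.23 for Notch4, with 95% intervals that all held 0 and lay between -0.74 and 0.77. Rbpj, the DNA-binding partner, had -0.06 ± 0.14. Neurl1a, a ubiquitin ligase of the Neuralized family that acts on Notch ligands, had the smallest p of the list, with 0.35 ± 0.12. It stood at 387, 371 and 322 CPM in wildtype, 308, 322 and 376 in exposed wildtype, 316, 311 and 328 in knockout, and 410, 357 and 365 in exposed knockout, apart in knockout and overlapping in wildtype. Fbxw7, which marks the Notch intracellular domain for degradation, had -0.24 ± 0.09 with groups apart in both genotypes, and Poglut1, a glucosyltransferase of Notch receptors, had 0.24 ± 0.10.

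Notch target genes likewise had 14 of 21 members positive and a median of 0.05. Bhlhe40, a repressor also known as a clock gene, rose in wildtype from 67.9, 65.1 and 65.1 to 93.4, 95.4 and 72.5 CPM (adjusted p = 0.0391). It stood at 70.2, 83.1 and 72.2 in knockout and 76.4, 82.6 and 69.1 in exposed knockout, with an interaction of -0.38 ± 0.13, the 1 member with an unadjusted p under 0.05. Id3 and Id1, inhibitors of basic helix-loop-helix factors, each had 0.22, with standard errors of 0.12 and 0.17.

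Serotonin genes had 10 of 20 members positive and a median of 0.00. Htr3a, the receptor subunit gene named in the genotype label, stood at 3.42, 4.91 and 4.52 CPM in wildtype, 5.19, 6.67 and 6.17 in exposed wildtype, 9.42, 10.4 and 10.6 in knockout, and 10.9, 10.3 and 9.94 in exposed knockout. The wildtype groups were apart and the knockout groups overlapped at a higher level, with an interaction of -0.46 ± 0.21. Htr3b had 0, 0 and 0 counts in wildtype, 0, 0 and 1 in exposed wildtype, 84, 106 and 60 in knockout, and 81, 88 and 112 in exposed knockout, so no fold change after exposure can be given for wildtype. Its neighbours Usp28, a deubiquitinase gene, and Zbtb16, a zinc finger factor gene, had interactions of -0.11 ± 0.14 and 0.04 ± 0.15, and Mzt1, a microtubule nucleation factor gene that is lower in knockout, had 0.04 ± 0.10. The 95% intervals of these 3 interactions lay between -0.39 and 0.35, which bounds how far exposure moved their difference between the genotypes.

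Slc29a4, Tph1 and Rbp3 were high in exposed knockout. Slc29a4, the plasma membrane monoamine transporter, stood at 21.0, 21.7 and 24 CPM in exposed knockout against 14.5, 14.9 and 15.7 in knockout, a rise with an adjusted p of 0.0429. Its wildtype libraries lay between 15.9 and 21.1 CPM, with overlap, and its interaction was 0.48 ± 0.15. Tph1, the serotonin synthesis enzyme of the pineal gland, stood at 1.53, 2.88 and 0.835 CPM in exposed knockout against 0.315 to 0.684 in the other 9 libraries, with 2.11 ± 0.67. Rbp3, which encodes the retinoid-binding protein of photoreceptors and pinealocytes, stood at 1.53, 2.35 and 1.14 CPM in exposed knockout and at 0 to 0.204 elsewhere, where so few counts support no fold. The part of pineal tissue in the dissection was not tested. Of 15 genes of a retina and pineal list, 6 had enough counts to be tested, and 5 of these had positive interactions. A gene of low level can pass the count filter through the group where it is high, as Rbp3 could through exposed knockout. The count of 5 therefore carries no weight. Htr3a-lineage interneuron genes had 8 of 18 positive and a median of -0.03, with Cnr1, the cannabinoid receptor gene, at -0.22 ± 0.11 and Npas3, a transcription factor gene, at -0.32 ± 0.20. That median turned on wildtype replicate 3: without it 2 of 18 were positive, 5 negative ones had an unadjusted p under 0.05 and the median was -0.18. It was -0.17 with 3 of 18 positive without both libraries that lack Xist, -0.18 with 4 of 18 positive under limma-voom with library weights, and ran up to 0.02 with 1 library left out.

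**Figure D4:**
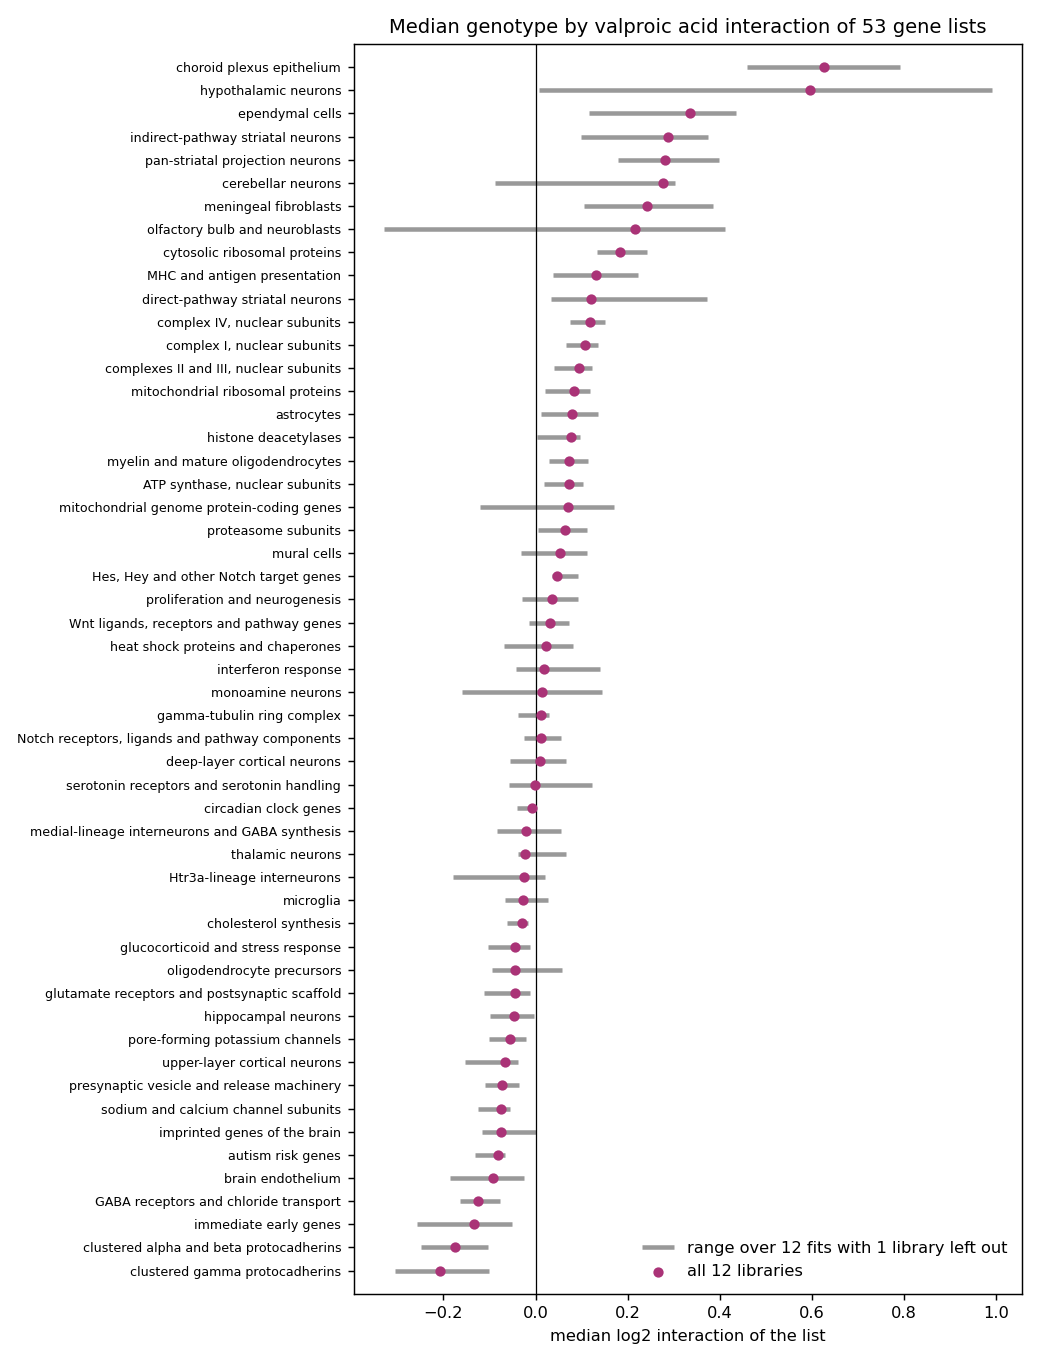
Median log2 interaction of the 53 gene lists with 8 or more tested members (points) and the range of that median over 12 fits with 1 library left out (bars). Choroid plexus genes stay between 0.46 and 0.79, and the bars of the cerebellar and olfactory bulb lists cross 0.

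Neuronal channel and synapse lists had small negative medians. Protein-coding genes of long span also leaned negative and those of short span positive, as described further on. The part of gene span in the lists of this paragraph and of ribosomal proteins was not tested. Of 56 autism risk genes 42 were negative with a median of -0.08, and 9 negative and 1 positive had an unadjusted p under 0.05, against 2.83% and 3.15% of all genes. Grin2b and Scn2a, given above, were among the 9. The 1 positive gene was Shank3, a postsynaptic scaffold gene, with 0.29. Sodium and calcium channel subunits had 19 of 27 negative and 7 negative genes at an unadjusted p under 0.05, among them Cacna2d1 (-0.39). Potassium channels had 11 of 53 negative at that level and Kcnma1, the large-conductance channel gene, had -0.31. In the opposite direction, nuclear subunits of respiratory complex I had 29 of 36 positive, a median of 0.11 and 5 at an unadjusted p under 0.05, such as Ndufb10 with 0.23. All 13 nuclear subunits of complex IV and 16 of 17 of the ATP synthase were positive, with medians of 0.12 and 0.07. These values were smaller without wildtype replicate 3, with 25 of 36, 11 of 13 and 11 of 17 positive and medians of 0.067, 0.10 and 0.025, and 0 complex I members at an unadjusted p under 0.05. Without knockout replicate 2 the medians of complex IV and the ATP synthase were 0.075 and 0.018. The count of 9 autism risk genes was 15 without the 2 libraries of highest mitochondrial share, and that of 11 potassium channels was 7 without wildtype replicate 3. The share of all genes at that level, in both directions, was 7.97% and 6.46% in these settings, against 5.97% with all 12 libraries.

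Some of the lists not described in full are given here briefly. Brain endothelium, which forms the blood-brain barrier, had 17 of 20 members negative and a median of -0.09, but without wildtype replicate 3 the median was -0.026 with 9 of 20 positive, and without both libraries that lack Xist it was -0.21. Tek, the angiopoietin receptor, had -1.17 ± 0.33 (unadjusted p = 0.00284) and stood at 9.66, 4.25 and 8.43 CPM in wildtype, 10.6, 9.82 and 7.29 in exposed wildtype, 9.94, 7.79 and 8.07 in knockout, and 5.28, 4.75 and 4.13 in exposed knockout. The exposed knockout libraries were all below the unexposed ones, and the wildtype groups overlapped. Immediate early genes, switched on by neuronal activity, had 20 of 29 negative with a median of -0.13, and GABA receptors and chloride transporters had 16 of 22 negative with -0.12. Upper-layer cortical neurons had 9 of 16 negative, of which 4 had an unadjusted p under 0.05, among them Rorb, a nuclear receptor gene, with -0.34; the 4 were 2 without wildtype replicate 3. Antigen presentation genes had 12 of 17 positive with 0.13, and mitochondrial ribosomal proteins 52 of 76 with 0.08. Histone deacetylases, the enzymes that valproic acid inhibits, had 11 of 18 positive with a median of 0.08 and 1 at an unadjusted p under 0.05. With 1 library left out these medians ran from -0.26 to -0.05 for immediate early genes (the latter without knockout with valproic acid replicate 3 or wildtype replicate 3), -0.16 to -0.08 for GABA receptors (the latter without knockout replicate 1) and 0.04 to 0.22 for antigen presentation (the lowest and highest without knockout with valproic acid replicates 1 and 3). They ran from 0.02 to 0.12 for mitochondrial ribosomal proteins (the lowest without knockout with valproic acid replicate 2) and 0.0038 to 0.096 for histone deacetylases (the lowest without knockout replicate 1).

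The median interaction also differed between genes of short and long genomic span. Spans came from GENCODE M21 and covered 98.2% of tested genes, and the 14825 protein-coding ones were put in 10 bins. The median interaction was 0.07 in the shortest bin (median span 3.01 kb, 65.2% positive) and -0.06 in the longest (238 kb, 37.4% positive), against 0.00 and 50.6% over all protein-coding genes. At an unadjusted p under 0.05 the shortest bin held 96 positive and 16 negative genes and the longest 27 and 118. Shortest-bin medians of the valproic acid difference were -0.05 in wildtype and 0.02 in knockout, and longest-bin medians were 0.03 and -0.03. The mean log2 CPM of the longest minus the shortest bin was 0.796 to 0.855 in wildtype and 0.862 to 0.885 in exposed wildtype, which did not overlap, and 0.773 to 0.838 in knockout and 0.710 to 0.785 in exposed knockout, which did. Without the 2 libraries of highest mitochondrial share the medians were 0.09 and -0.07, and over all 24 other settings they ranged from 0.05 to 0.10 and from -0.09 to -0.05. The shift of a bin is small beside the median standard error of a single gene, 0.17, and rests on 12 libraries whatever the number of genes.

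**Figure D5:**
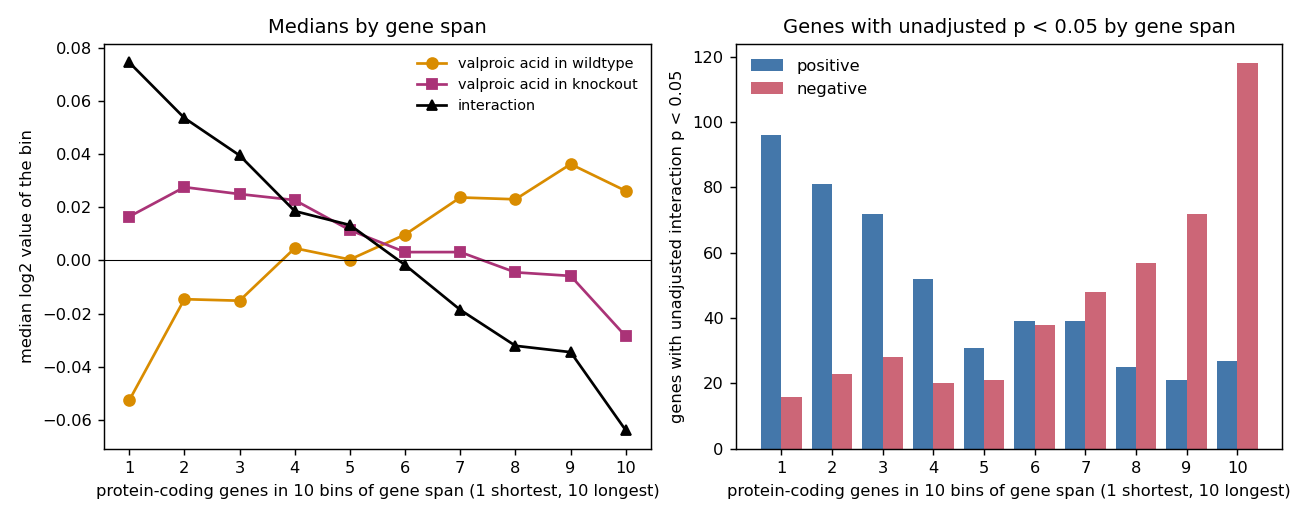
Protein-coding genes in 10 bins of genomic span, from shortest (1) to longest (10): median log2 valproic acid difference in wildtype and knockout with the median interaction (left), and the number of genes with an unadjusted interaction p under 0.05 in each direction (right). The median interaction goes from 0.07 in the shortest bin to -0.06 in the longest.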

How the data were processed

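Brain RNA was ribosome-depleted and made into libraries with an NEBNext Ultra kit, per the labels' protocols. HISAT2 and the mouse build GRCm39 are named, without versions, per the submitters' processing notes; for the counting program, annotation release and strand setting, nothing is stated in the sources used here. The authors deposited a table of raw counts for 56748 Ensembl genes in 12 libraries. Symbols came from GENCODE M21 on GRCm38 for 52073 genes, which hold 99.51% of the counts.

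Genes were kept by filterByExpr (17995), libraries scaled by TMM (factors 0.93 to 1.02), and a mean per group fitted with the robust quasi-likelihood method of edgeR 4.0.16 in R 4.3.3 (common biological coefficient of variation 0.09). Tests were two-sided at 0.05 after Benjamini-Hochberg adjustment across the tested genes. CPM values used TMM library sizes, and log2 CPM a prior count of 2. Intervals are 95%. The interaction test was first tested on simulated data. Other settings used DESeq2 1.42.0 and limma 3.58.1; figures used Python 3.11.15, pandas 2.3.3, numpy 2.4.6 and matplotlib 3.10.9.

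Gene lists, named genes and tests were chosen with earlier results of these data known. As 0 genes passed, the rule named the 12 smallest interaction p-values in each direction at a mean of at least 1 CPM (predicted genes left out), the 3 smallest in each of the 10 lists with medians farthest from that of all genes and in 4 Notch, serotonin and interneuron lists, the 6 smallest for valproic acid in each genotype, the Notch receptors, Rbpj, Htr3a, Htr3b, Usp28, Zbtb16 and Mzt1. Ttr, Aqp1, Folr1, Rps12, Rbp3, Tek, Rorb, Osbpl8, Serpini1 and the members named for channels, autism risk and complex I were named after their values were seen. Rpl13a, Rpl12, Rplp2 and Rps18, shown with their start sequences, were not given by the rule either. Of the genes that the rule gave, 1 is not reported here.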

Additional observations from a re-analysis of the deposited data

How the results depend on the processing

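With 3 libraries a group, all values rest on few libraries, and the reading of each list is limited by how 1 library changes it. Against 0 genes past the interaction test, 5 passed with no count filter (Cldn2, Folr1 and Mfrp positive, Tek and Gpr161 negative), 4 without both libraries that lack Xist (Lars2, Col8a2, Grin2b and 1 gene with no symbol) and 1 without the 2 libraries of highest mitochondrial share (Rpl17-ps10; chosen after seeing the data). Leaving out 1 library gave 0 to 1: Wdfy1 without knockout replicate 1 and Rpl17-ps10 without knockout with valproic acid replicate 1. The cause of these was not tested. The 161 calls for valproic acid in wildtype became 512 with no count filter, 333 with DESeq2, 537 with limma-voom and library weights, 69 with a term for libraries that lack Xist and 40 without them, and 14 to 225 with 1 library left out, the lowest without wildtype replicate 3. The 10 in knockout became 391, 193 with DESeq2, 3 with limma-voom, 2 with the Xist term and 4 without the 2 libraries of highest mitochondrial share, and 2 to 162 with 1 library left out, the highest without wildtype with valproic acid replicate 3. The 7 for knockout without exposure became 15 with no count filter. The 9 for knockout with exposure became 60 with no count filter, 25 with DESeq2, 204 with library weights, 29 without both libraries that lack Xist, 26 without the 2 of highest mitochondrial share, and 7 to 86 with 1 left out. Deviations of same-numbered libraries from their group means had low correlations (18 pairs, -0.06 to 0.11, 1 over 0.1). Their median was 0.012, against -0.0044 for pairs of other numbers, and 7 of 12 libraries correlated best with their own number. A weak link by number is thus not excluded. A replicate block gave 0 genes for the interaction, 115 for valproic acid in wildtype and 6 in knockout. List medians that moved by more than the spread between replicates were, without both libraries that lack Xist, 0.28 for ribosomal proteins, 0.45 for meningeal fibroblasts and 0.10 for serotonin genes. With 1 library left out they ran from -0.026 to 0.055 for Notch components, -0.087 to 0.30 for cerebellar, -0.33 to 0.41 for olfactory bulb, 0.12 to 0.44 for ependymal, 0.10 to 0.38 for indirect-pathway, -0.30 to -0.10 for gamma protocadherin and -0.057 to 0.12 for serotonin genes. Signs of 4 small interactions turned: Mzt1 was -0.038 with library weights, -0.011 without the 2 libraries of highest mitochondrial share and -0.012 to 0.090 with 1 library left out; Pde7b was -0.014 without both libraries that lack Xist and -0.0075 to 0.13 with 1 left out; Notch2 and Zbtb16 ranged from -0.021 to 0.21 and -0.075 to 0.15. Of the other gene values 1831 kept their sign and stayed on their side of the test.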

Other observations

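Rpl17-ps10 and Wdfy1, which passed the interaction test when certain libraries were left out, each stood at 2 levels that did not follow the groups. They were chosen after their values were seen. Rpl17-ps10, a ribosomal protein pseudogene, stood at 113, 128 and 133 CPM in exposed wildtype and at 124 in the first exposed knockout library, and at 215 to 246 CPM in the other 8 libraries. Wdfy1, a phosphoinositide-binding protein gene of endosomes, stood at 39.1, 37.1 and 39.2 CPM in exposed wildtype, at 37.8 and 39.9 in the second and the third unexposed knockout library, and at 34.9 in the first exposed knockout library. The other 6 libraries had 21.1 to 25.8 CPM of Wdfy1. For both genes the first exposed knockout library stood with exposed wildtype and apart from the other two of its own group. Lars2, the mitochondrial leucyl-tRNA synthetase gene, which passed without both libraries that lack Xist, stood at 304, 259 and 310 CPM in wildtype and 127 to 234 in the other 9 libraries. Its lowest value, 127, was in the exposed knockout library that lacks Xist.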
